A study of Homo sapiens with 6 samples.

Results

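Immediate early genes and feedback regulators of the ERK pathway were examined in DLD-1 colon cancer cells with and without ectopic DKK1. The list held 38 genes, chosen by symbol, and each was read from the 1 array probe set that carries its name. Of these, 37 were measured and EGR2 was not analysed here, out of 18404 genes named by a single symbol on the array. The cells were the human colorectal adenocarcinoma line DLD-1, in which APC is mutated and which the study describes as lacking endogenous DKK1. DLD-1/DKK1 cells carried a Tet-On lentivirus that expresses V5-tagged DKK1 together with eGFP, and DLD-1/Mock cells carried the lentivirus without DKK1. Cells of both groups had been given doxycycline for a day, at 10 mg/ml by the labels and at micrograms per ml by the methods. There were 3 dishes and 3 arrays per group, described as independent dishes, and no selection of clones is described in the sources used here.

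In these pathways a growth factor receptor activates RAS, and RAS passes the signal through the RAF and MEK kinases to ERK. ERK phosphorylates factors such as ELK1 that sit with SRF on CArG boxes, and genes such as FOS and EGR1 are then transcribed within minutes without new protein synthesis. FOS and JUN proteins pair to form AP-1, and EGR proteins are zinc finger transcription factors. Among the induced genes are brakes on the same pathway: DUSP phosphatases that remove phosphates from MAP kinases, and Sprouty and SPRED proteins that act upstream on RAS and RAF. JNK, which phosphorylates JUN, is the branch of this family tied to non-canonical Wnt signalling, and the study asked whether DKK1 acts on it.

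The promoters of 4 members are shown because they carry the motifs through which such genes are known to be induced. EGR1 had the lowest log2 fold change of all members and FOS is the archetype of the class, while DUSP8 and DUSP1 hold the same element and differed in their values. Each stretch runs from 150 to 51 bases before the transcription start in RefSeq sequence of build GRCh38.p14, 5′ to 3′ on the strand of the gene. The capitals mark CArG boxes in EGR1, the short form of the cyclic AMP response element, TGACG, in FOS, and the whole element, TGACGTCA, in DUSP8 and DUSP1.
EGR1 (chr5:138465329-138465428, plus strand): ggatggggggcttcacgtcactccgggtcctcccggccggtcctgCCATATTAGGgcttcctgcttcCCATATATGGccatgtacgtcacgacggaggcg
FOS (chr14:75278678-75278777, plus strand): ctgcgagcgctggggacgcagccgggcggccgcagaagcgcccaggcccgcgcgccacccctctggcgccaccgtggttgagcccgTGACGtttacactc
DUSP8 (chr11:1572322-1572421, minus strand): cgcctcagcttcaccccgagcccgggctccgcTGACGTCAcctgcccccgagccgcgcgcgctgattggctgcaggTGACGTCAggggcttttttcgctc
DUSP1 (chr5:172771246-172771345, minus strand): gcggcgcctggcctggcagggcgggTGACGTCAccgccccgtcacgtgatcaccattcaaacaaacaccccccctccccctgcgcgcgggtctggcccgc

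The labels and the arrays were checked first. DKK1 stood at 5.15, 5.74 and 5.01 on the log2 scale in the DLD-1/Mock arrays and at 12.30, 12.38 and 12.36 in the DLD-1/DKK1 arrays, 7.05 apart (SE 0.18; adjusted p = 0.00015 in limma). Mock 2 stood apart, with correlations of 0.9953 to 0.9969 to the other arrays, against at least 0.9973 among those 5. Of 8 epithelial markers, EPCAM had a mean log2 value at percentile 98.7 of all probe sets and CDX1, the lowest, one at percentile 55.7. Of 8 leukocyte markers, 6 had a log2 fold change below 0, and their summed level ran from 8.89 to 8.99 on the log2 scale in DLD-1/Mock and from 8.75 to 8.78 in DLD-1/DKK1. The defining PTPRC was at percentile 9.8 with a log2 fold change of 0.00, and CD14 and CD68 had -0.27 and -0.26. The 8 fibroblast markers had summed levels of 9.12 to 9.31 in DLD-1/Mock and 9.08 to 9.16 in DLD-1/DKK1, with DCN and LUM at percentiles 10.9 and 7.1. The part of these markers in the results below was not tested.

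Across the list, EGR1 and DUSP5 were the members with the largest differences between the groups. EGR1 RNA in DLD-1/DKK1 was at 69.7% of its DLD-1/Mock level and DUSP5 RNA at 72.7%, and both had a limma adjusted p of 0.0696. A further 6 members, IER3, NR4A1, ZFP36, ETV1, ATF3 and DUSP8, were lower in DLD-1/DKK1 at an unadjusted p under 0.05, with levels of 86.2% to 90.2% of DLD-1/Mock. SPRY2, at 111.8% of DLD-1/Mock, was the only member higher at that level, and after median centring IER2 and PHLDA1 were so too. Of the 9 members at that level in the values as deposited, ATF3, ETV1, DUSP8 and SPRY2 had an unadjusted p above 0.05 when DKK1 2 was left out, ATF3 and SPRY2 also without Mock 1 and DUSP8 without Mock 3. ATF3 and ETV1 did so after median centring too, and ATF3 after cyclic loess. No member passed the adjusted threshold of 0.05 over all 32321 probe sets. Since RNA was taken from whole dishes, a lower level in every cell and a lower share of cells with the transcript cannot be told apart.

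At the adjusted threshold 0 of 37 members were called in limma, against 28 or 0.0866% of all probe sets. At an unadjusted p under 0.05, 8 members (21.6%) were lower and 1 (2.70%) was higher in DLD-1/DKK1. Of all genes, 5.45% were lower and 4.67% higher by the same measure. Centring each array on its median moved these splits, to 6 lower and 3 higher among the members and to 1.83% lower and 10.7% higher among all genes. The arrays of the groups did not overlap for 13 members lower (35.1%) and 2 members higher (5.41%) in DLD-1/DKK1, where 9.8% and 9.69% of all genes did so. A log2 fold change below 0 was found in 26 of 37 members (70.3%), against 53.6% of all genes, and in 51.4% of members and 29.7% of genes after median centring. The median log2 fold change was -0.06 over the members and -0.01 over all genes. After median centring these medians were -0.0092 and 0.05.

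EGR1, a zinc finger factor that growth signals induce within minutes, had log2 values of 10.52, 10.68 and 10.68 in DLD-1/Mock. In DLD-1/DKK1 its values were 10.08, 10.05 and 10.18, so that every DLD-1/DKK1 array lay below every DLD-1/Mock array. The means were 10.63 ± 0.09 (SD, n = 3) and 10.11 ± 0.07 (SD, n = 3). The log2 fold change was -0.52 (SE 0.06, 95% interval -0.67 to -0.37), with limma p values of 0.000108 unadjusted and 0.0696 adjusted. By p-value EGR1 held rank 48 among all probe sets. The exact permutation test gave p = 0.1, two-sided, the smallest value that 3 arrays against 3 allow.

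EGR3, a relative of EGR1 that is also induced by ERK and calcium signals, had values of 6.91, 6.83 and 6.90 in DLD-1/Mock and 6.89, 6.81 and 6.89 in DLD-1/DKK1. The groups overlapped throughout, and the log2 fold change was -0.02 (95% interval -0.13 to 0.09). This interval lies above the interval of EGR1 in the deposited values. EGR3 was the dimmer gene, with a brightness percentile of 50.8 against 87.3 for EGR1, so the contrast may not hold for RNA. The sign of the EGR3 value turned to 0.03 after quantile normalisation, median centring and cyclic loess alike. With EGR2 not analysed here, the EGR subgroup rested on these genes, and its median of -0.27 is the midpoint of the EGR1 and EGR3 values.

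DUSP5, a nuclear phosphatase that dephosphorylates and anchors ERK and is itself induced by ERK, had log2 values of 8.70, 8.78 and 8.60 in DLD-1/Mock. In DLD-1/DKK1 they were 8.23, 8.19 and 8.27, again with no overlap. The log2 fold change was -0.46 (SE 0.06, 95% interval -0.60 to -0.33), with limma p values of 0.000114 unadjusted and 0.0696 adjusted. DUSP5 held rank 52 among all probe sets by p-value.

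**Figure D1:**
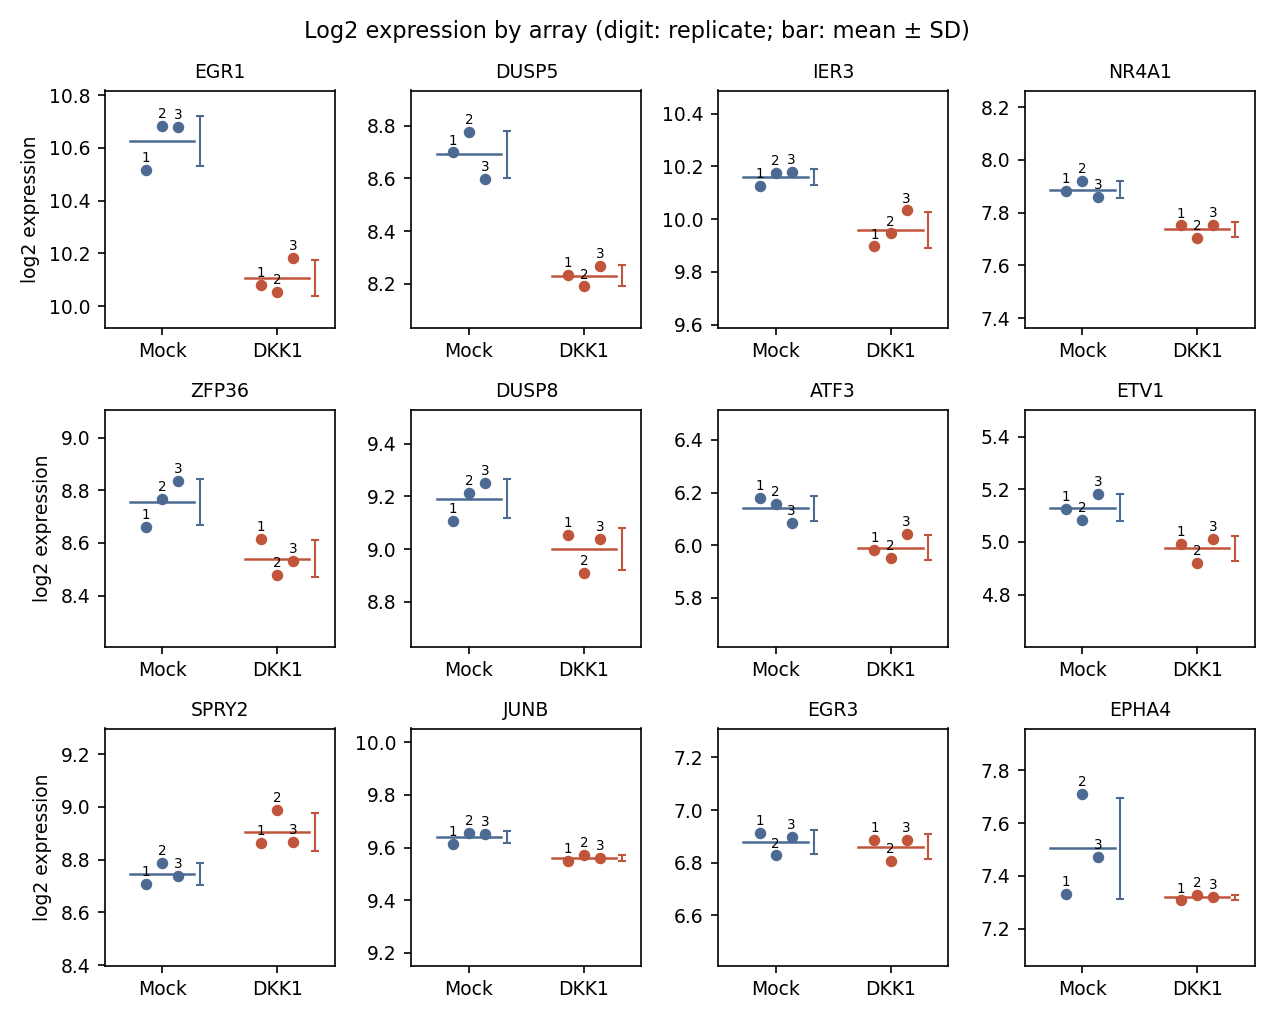
Log2 expression (vertical axis, each panel spanning the same range of 0.9) of 12 members in each array of the DLD-1/Mock group and of the DLD-1/DKK1 group (n = 3 each), with the replicate number above each point, a line for the group mean and a whisker for ± SD. EGR1 and DUSP5 show the widest gap between groups, SPRY2 lies higher in DLD-1/DKK1, EGR3 overlaps, and the EPHA4 mean of DLD-1/Mock is drawn up by Mock 2 at 7.71.

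Whether EGR1 and DUSP5 passed the adjusted threshold changed with the set of features tested, while their log2 fold changes moved little. When only the 20546 probe sets with a gene annotation were tested, the limma adjusted p was 0.0179 for EGR1 and 0.0195 for DUSP5. When only probe sets above the median brightness were tested, it was 0.0288 for both. A trended and robust prior gave 0.0384 for EGR1 and 0.0515 for DUSP5, and array weights gave 0.06 and 0.0393. Neither passed when any array was left out, where the adjusted p ran from 0.165 to 0.334 for EGR1 and from 0.162 to 0.334 for DUSP5, with fewer arrays in the fit. Over all alternatives the log2 fold change stayed between -0.575 and -0.468 for EGR1 and between -0.507 and -0.408 for DUSP5.

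**Figure D2:**
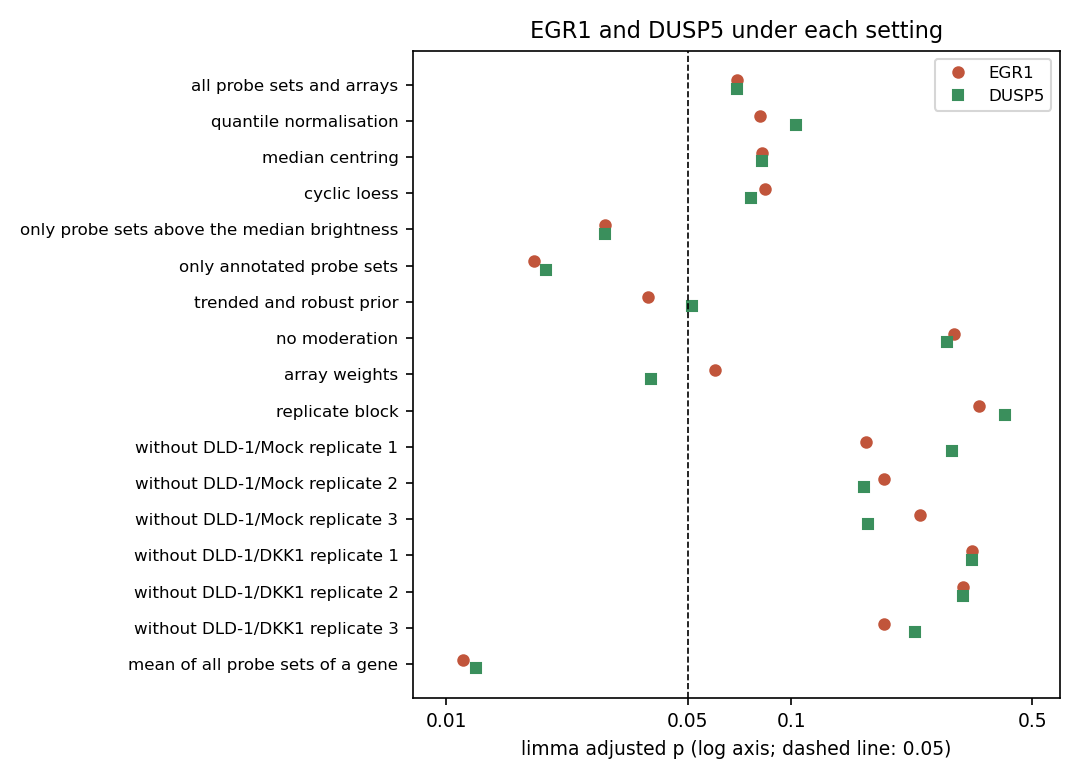
Limma adjusted p (horizontal log axis) of EGR1 (circles) and DUSP5 (squares) with all probe sets and arrays and under each alternative (vertical axis), with a dashed line at 0.05. The points run from 0.0112 to 0.417, and those left of the line come from fits on fewer probe sets or genes, another prior or array weights.

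The other phosphatases of the DUSP family had smaller differences than DUSP5. The nuclear and inducible DUSP1, DUSP2 and DUSP4, which act on ERK, JNK and p38 to differing degrees, had log2 fold changes of 0.01, -0.0045 and -0.03, with overlapping groups, and the last 2 turned positive under each of the 3 scalings tried. DUSP6 and DUSP7, cytoplasmic phosphatases of ERK, had 0.03 and -0.06. DUSP6 is widely read as a gauge of ERK output, and its values were 9.16, 9.11 and 9.10 in DLD-1/Mock and 9.11, 9.14 and 9.22 in DLD-1/DKK1. Its 95% interval ran from -0.08 to 0.14, which lies above the interval of DUSP5.

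Of the phosphatases directed at JNK and p38, DUSP8 had separate groups and DUSP10 had overlapping groups. DUSP8 had values of 9.11, 9.21 and 9.25 in DLD-1/Mock and 9.05, 8.91 and 9.04 in DLD-1/DKK1. The groups did not overlap, and the log2 fold change was -0.19 (SE 0.06; limma unadjusted p = 0.0174, adjusted p = 0.483). DUSP10 had a log2 fold change of 0.05. In all, 5 of the 8 DUSP genes (62.5%) lay below 0, beside 53.6% of all genes. Of the 8, DUSP5 and DUSP8 (25%) were lower at a limma unadjusted p under 0.05, beside 5.45% of all genes. The median of the subgroup was -0.02. That median turned to 0.02 after quantile normalisation, 0.03 after median centring and 0.02 after cyclic loess, so its sign did not hold under every scaling. After median centring the median of all genes was 0.05.

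AP-1 genes showed small values of mostly the same sign. Of the 8, 7 (87.5%) had a log2 fold change below 0, with a median of -0.08. After median centring 5 (62.5%) did, with a median of -0.02. Of all genes, 53.6% lay below 0, and 29.7% after median centring, which moved their median from -0.01 to 0.05. Without Mock 2 the AP-1 median was -0.04. Of the AP-1 genes, 1 (12.5%) was lower at a limma unadjusted p under 0.05, beside 5.45% of all genes. After median centring none was, beside 1.83% of all genes. That gene was ATF3, a stress-induced factor that pairs with JUN proteins. Its values were 6.18, 6.16 and 6.09 in DLD-1/Mock and 5.98, 5.95 and 6.04 in DLD-1/DKK1, without overlap, for a log2 fold change of -0.15 (SE 0.05; limma unadjusted p = 0.0160, adjusted p = 0.476). With a brightness percentile of 40.2, ATF3 was among the dimmer members, and expression above background was not shown for it.

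Among the JUN proteins, JUNB had values of 9.61, 9.66 and 9.65 in DLD-1/Mock and 9.55, 9.57 and 9.56 in DLD-1/DKK1. These groups did not overlap, although they lay close together, and the log2 fold change was -0.08 (SE 0.04; limma unadjusted p = 0.0671, adjusted p = 0.562). JUN, the main substrate of JNK and an autoregulated gene, had values of 6.31 to 6.38 over the 6 arrays and a log2 fold change of -0.01 (95% interval -0.11 to 0.08), whose sign turned under each of the 3 scalings tried. JUN was dim too, with a brightness percentile of 44, so its small value does not bound a change in JUN RNA. JUND, the least inducible of the family, had -0.08 and overlapping groups.

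FOS had values of 6.85, 7.08 and 6.93 in DLD-1/Mock and 6.73, 6.83 and 6.93 in DLD-1/DKK1. Its groups overlapped, and the log2 fold change was -0.12 (95% interval -0.31 to 0.06). It was -0.06 without Mock 2, -0.07 without DKK1 1 and -0.07 to -0.08 under the 3 scalings. FOSB, a relative of FOS, stood at 6.92 in Mock 2 and between 6.49 and 6.60 in the other 5 arrays. Its log2 fold change was -0.08 with all arrays and 0.06 without Mock 2. FOSL1 and FOSL2, the Fos-related factors that accumulate under sustained ERK activity, had -0.03 and 0.03, with overlapping groups; the FOSL1 value was 0.02 after median centring.

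Sprouty, SPRED and ETV genes, whose transcripts are commonly used as readouts of ERK activity, had no shared direction. Of the 8, 4 lay above and 4 below 0, with a median of 0.01. That median was -0.0024 after quantile normalisation and 0.06 after median centring, where the median of all genes was 0.05. All 3 Sprouty genes had values above 0, with log2 fold changes of 0.05 for SPRY1, 0.16 for SPRY2 and 0.06 for SPRY4, which was 0.0093 without Mock 1, 0.03 without DKK1 3 and 0.11 without Mock 2. SPRY2, which binds GRB2 and holds back RAS activation, stood at 8.71, 8.79 and 8.74 in DLD-1/Mock and at 8.86, 8.99 and 8.87 in DLD-1/DKK1. Every DLD-1/DKK1 array of SPRY2 lay above every DLD-1/Mock array, with an SE of 0.05 and limma p values of 0.0179 unadjusted and 0.483 adjusted.

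The SPRED genes, membrane proteins that bring neurofibromin to RAS, lay on both sides of 0, with 0.08 for SPRED1 and -0.08 for SPRED2. Leaving out single arrays took SPRED1 from 0.04 without DKK1 1 to 0.13 without Mock 3. The 3 ETV genes, ETS factors of the PEA3 group, all had values below 0, except that ETV5 was at 0.03 after median centring. ETV1 had values of 5.12, 5.08 and 5.18 in DLD-1/Mock and 4.99, 4.92 and 5.01 in DLD-1/DKK1, without overlap. Its log2 fold change was -0.15 (SE 0.05; limma unadjusted p = 0.0147, adjusted p = 0.469), but its mean lay at percentile 24.4 of all probe sets, where differences are compressed and a transcript was not shown to be above background. It was -0.10 after median centring (limma unadjusted p = 0.0866) and -0.13 without DKK1 2 (limma unadjusted p = 0.0543). ETV4 had -0.07 and ETV5 -0.03, with groups that did not overlap and intervals that included 0.

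**Figure D3:**
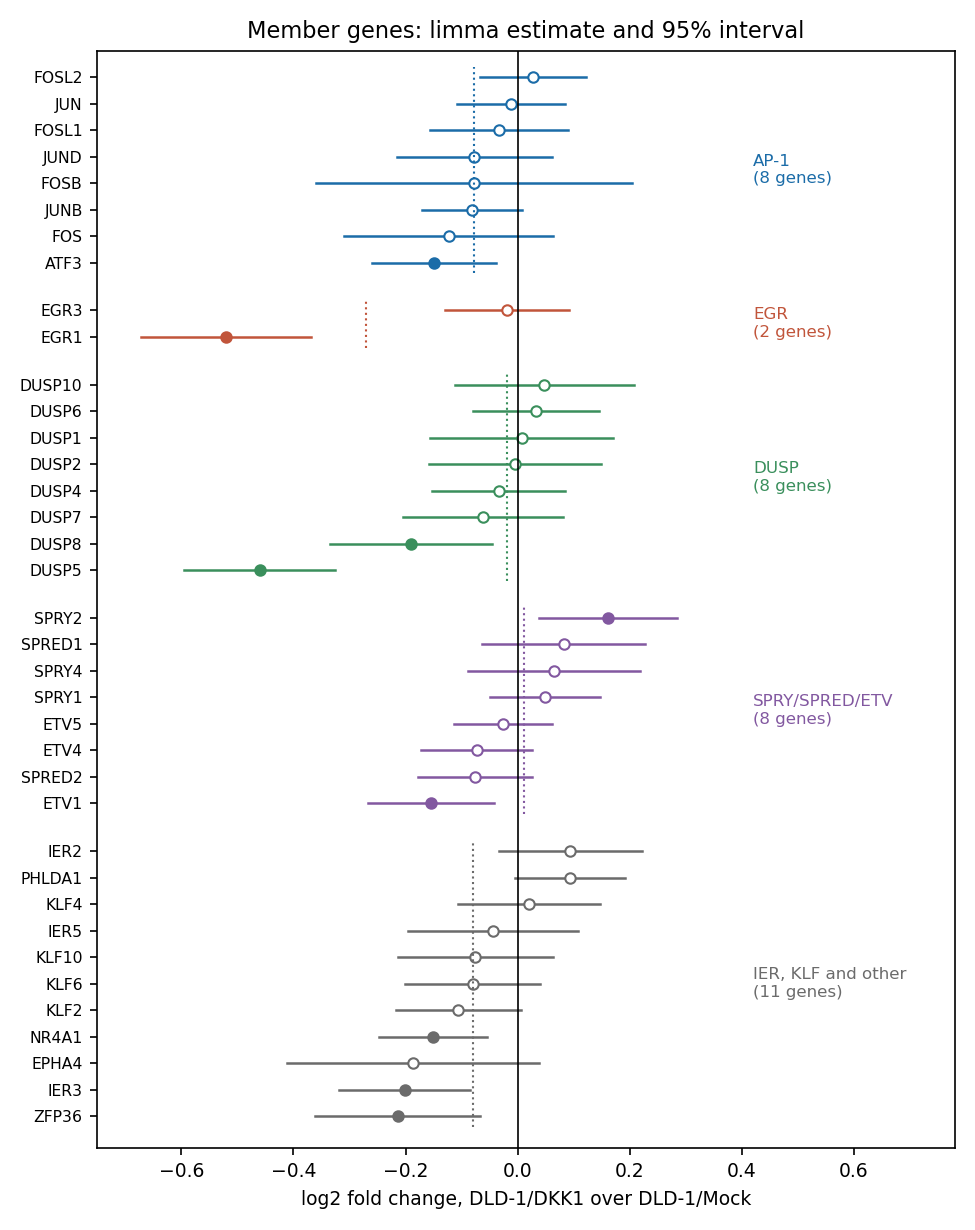
Difference of mean log2 values, DLD-1/DKK1 minus DLD-1/Mock, along the horizontal axis for the 37 measured members by subgroup, with circles for the limma estimate, filled at an unadjusted p under 0.05, whiskers for the 95% interval and a dotted line for the subgroup median (3 arrays per group). EGR1 at -0.52 and DUSP5 at -0.46 lie apart from the other members, which run from -0.21 for ZFP36 to 0.16 for SPRY2.

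The other 11 members are early response genes of further kinds. IER3, which protects cells from death and prolongs ERK activity, had values of 10.13, 10.17 and 10.18 in DLD-1/Mock and 9.90, 9.95 and 10.03 in DLD-1/DKK1. Its log2 fold change was -0.20 (SE 0.05; limma unadjusted p = 0.00510, adjusted p = 0.393), with no overlap between groups. IER2 had 0.09 and IER5 -0.04, both with overlapping groups, so the IER genes had values on both sides of 0.

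ZFP36, a protein that binds AU-rich elements and speeds the decay of cytokine and early gene transcripts, had values of 8.66, 8.77 and 8.84 in DLD-1/Mock and 8.61, 8.48 and 8.53 in DLD-1/DKK1. The groups were separate, and the log2 fold change was -0.21 (SE 0.06; limma unadjusted p = 0.0111, adjusted p = 0.450). NR4A1, an orphan nuclear receptor induced by growth and stress signals, stood at 7.88, 7.92 and 7.86 in DLD-1/Mock and 7.75, 7.70 and 7.75 in DLD-1/DKK1. The small spread of NR4A1 left a gap between the groups at a log2 fold change of -0.15 (SE 0.04; limma unadjusted p = 0.00789, adjusted p = 0.411).

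PHLDA1, a further gene read as ERK output, had 0.09, with every DLD-1/DKK1 array above every DLD-1/Mock array and an unadjusted p of 0.0599 in limma. The KLF genes, zinc finger factors of growth arrest and differentiation, had log2 fold changes of -0.11 for KLF2, 0.02 for KLF4, -0.08 for KLF6 and -0.08 for KLF10, all with overlapping groups. EPHA4, an ephrin receptor, had values of 7.33, 7.71 and 7.47 in DLD-1/Mock and of 7.31 to 7.33 in DLD-1/DKK1. Its log2 fold change of -0.19 was -0.08 without Mock 2. In this mixed group 8 of 11 (72.7%) lay below 0, with a median of -0.08, beside 53.6% of all genes. After median centring 7 (63.6%) did, with a median of -0.03, beside 29.7% of all genes with a median of 0.05.

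The intervals bound differences in the deposited values, given the spread between dishes. They do not bound a change in RNA where differences are compressed, as between dim probe sets. The members below the median brightness were ETV1, ATF3, JUN, FOSB and DUSP4, with brightness percentiles from 24.4 to 47.7. The 95% interval of the fold change lay inside a 1.5-fold change in either direction for 35 of 37 members (94.6%), the exceptions being EGR1 and DUSP5, and inside a 1.25-fold change for 31 (83.8%). Of all genes, 99.3% and 87.9% did so. The spread between dishes was similar for the members and for all genes, with a median residual SD of 0.0587 against 0.0652 on the log2 scale. Mock 2 held the highest value of the 6 arrays for 12 of 37 members, more than any other array, and DKK1 1 the lowest for 11.

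Genes around the list were counted in the same fit. Among 26 other immediate early and ERK-responsive genes, 19 (73.1%) lay below 0 with a median of -0.06, against 13 (50%) and -0.0026 after median centring. Of all genes, 53.6% lay below 0 with a median of -0.01, against 29.7% and 0.05 after median centring. At an unadjusted p under 0.05, 8 of the 26 (30.8%) were lower and 0 higher, beside 5.45% and 4.67% of all genes. After median centring 19.2% were lower and 3.85% higher, beside 1.83% and 10.7% of all genes. None passed the adjusted threshold. The lowest p belonged to EREG, a ligand of the EGF receptor, which stood at 10.86, 10.82 and 10.81 in DLD-1/Mock and 10.47, 10.46 and 10.51 in DLD-1/DKK1. Its log2 fold change was -0.35 (SE 0.04; limma adjusted p = 0.0534), with separate groups. CXCL8, a neutrophil chemokine driven by AP-1 and NF-kB, had -0.41 (SE 0.07; limma adjusted p = 0.207), and LIF, a cytokine of the IL-6 family, had -0.21 (SE 0.04; limma adjusted p = 0.259).

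The kinases and adaptors of the cascade itself stayed within narrow bounds. Of 27 ERK cascade components 21 were measured, with log2 fold changes between -0.11 and 0.14. Of these, 9 (42.9%) lay below 0 with a median of 0.01. After quantile normalisation 13 (61.9%) did with a median of -0.01, and after median centring 3 (14.3%) with a median of 0.06. Of all genes, 53.6%, 50.7% and 29.7% lay below 0 in that order, and their median after median centring was 0.05. RRAS, a RAS-related GTPase, had the smallest p of the ERK cascade components, with a log2 fold change of -0.11 (limma unadjusted p = 0.0324, adjusted p = 0.519). Of 13 measured JNK and p38 cascade components, 0 passed even the unadjusted threshold, against 1 after median centring, and their log2 fold changes ran from -0.09 to 0.14. At that threshold 5.45% of all genes were lower and 4.67% higher, against 1.83% and 10.7% after median centring. Of 7 measured factors upstream of immediate early genes, ELK3, an ETS partner of SRF, had 0.21 (SE 0.05; limma adjusted p = 0.371), and the other 6 lay within 0.04 of 0. Of these 7, 3 lay below 0, against 6 after quantile normalisation and 0 after median centring. Their median after median centring was 0.06, beside 0.05 for all genes.

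Of 16 targets and co-repressors of AP-1 and EGR factors, 7 (43.8%) lay below 0 with a median of 0.0027, beside 53.6% of all genes. After median centring 3 (18.8%) did with a median of 0.06, beside 29.7% of all genes with a median of 0.05. The median of the 16 was 0.03 after quantile normalisation and 0.04 after cyclic loess. At an unadjusted p under 0.05, 3 (18.8%) were higher and none lower, beside 4.67% and 5.45% of all genes. After median centring 31.2% were higher, beside 10.7% of all genes. PTGS2, the inducible cyclooxygenase, had the largest value at 0.53 (SE 0.09; limma adjusted p = 0.155), from 5.85, 5.66 and 5.72 in DLD-1/Mock to 6.31, 6.40 and 6.11 in DLD-1/DKK1. PTGS2 was also dim, with a brightness percentile of 39.5, and its level was not compared with background. CD44, a hyaluronan receptor, had 0.13 and F3, the tissue factor, 0.10. Heat shock genes, which respond to stress and handling, had a median of 0.02 over 8 genes and of 0.07 after median centring. For all genes these medians were -0.01 and 0.05. HSPH1 had 0.20 and HSPE1 0.16 (limma adjusted p values of 0.233 and 0.534), and no heat shock gene was lower at an unadjusted p under 0.05. The summed level of the heat shock genes ran from 15.43 to 15.48 in DLD-1/Mock and from 15.47 to 15.49 in DLD-1/DKK1. Its part in the values of the early genes was not tested.

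**Figure D4:**
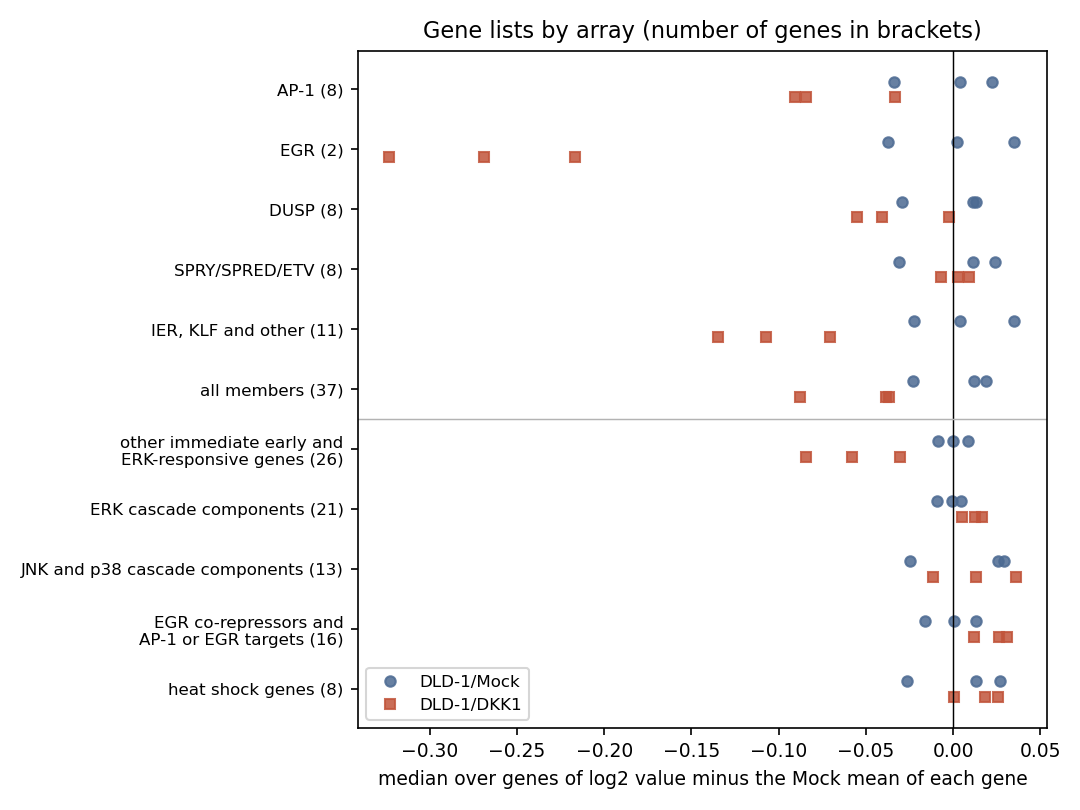
Median over the genes of each list of the log2 value minus that gene's DLD-1/Mock mean (horizontal axis), in the 3 DLD-1/Mock arrays (circles) and the 3 DLD-1/DKK1 arrays (squares), with member subgroups above the line and other lists below it. DLD-1/DKK1 arrays lie at -0.13 to -0.07 for IER, KLF and other genes and at -0.08 to -0.03 for other early genes, while SPRY/SPRED/ETV genes overlap. After median centring the median log2 fold changes of the first 2 lists were -0.03 and -0.0026, beside 0.05 for all genes.

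The promoter windows of the members were searched for known elements, a feature that the choice of genes did not use. Windows of 300 bases, from 250 before to 50 after the start, were held for 29 of the 37 measured members and for 27305 genes in all, both strands were read, and no window was held for DUSP5. A CArG box was found in 1 member, EGR1, against 1.60% of all genes. The EGR1 boxes span bases 105 to 96 and 83 to 74 before the start, as marked in the sequence above. No match says only that the letters are not in this window: the FOS window, for example, holds none.

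The short form TGACG was found in 17 of 29 members, against 28.4% of all genes, and the whole element TGACGTCA, which contains the short form on each strand, in DUSP1, DUSP8 and JUND, against 2.25%. Among those 3, DUSP8 had a log2 fold change of -0.19, JUND -0.08 and DUSP1 0.01. The DUSP8 stretch above holds the whole element at 118 to 111 and at 74 to 67 bases before the start, and that of DUSP1 holds it at 125 to 118. The AP-1 site TGANTCA was found in FOSL2 and SPRED2, against 9.37% of genes, and the ETS core CCGGAAG in IER2 and SPRY1, against 12.2%. An EGR site, GCGTGGGCG or GCGGGGGCG, was found in 6 members, DUSP2, EPHA4, KLF2, KLF6, SPRY1 and SPRY2, against 6.95% of genes, and their log2 fold changes ran from -0.19 for EPHA4 to 0.16 for SPRY2. A match is a run of letters and not a shown binding site.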

How the data were processed

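Total RNA from the 6 dishes was labelled and read on Affymetrix Human Gene 1.0 ST arrays. The authors made the deposited log2 values from the raw scans in R by the robust multichip average method, which corrects background, equalises the arrays and summarises probe sets; the versions used are not given. This removes a change that most transcripts share and compresses differences between dim probe sets. The values were used as deposited. The number of arrays limits the precision.

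Groups came from the sample titles. All 32321 probe sets were fitted with limma 3.58.1 in R 4.3.3 (lmFit, eBayes; 4 residual and 2.56 prior degrees of freedom), two-sided, with Benjamini-Hochberg adjustment over all of them and a threshold of 0.05. P-values measure the spread between dishes. Genes were named from the platform annotation for the 19158 probe sets with 1 symbol (several, 1388; none, 11775), updated to GRCh38.p14, which matched 19128. The probe set with the highest mean was kept per gene. Each measured member had 1 probe set.

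The members and lists were chosen with earlier results of these data known. Named genes were all members, with every array's value at an unadjusted p under 0.05 and for the 2 smallest p of each subgroup, and, from other lists, up to 3 with the smallest unadjusted p under 0.05. Array values of DUSP6, FOS, FOSB, JUN and EPHA4 beyond that rule were chosen after they were seen. Lists are described by counts and medians without a test. Alternatives were other scalings, filters, priors, no moderation, array weights, a replicate block, the mean of all probe sets of a gene and each array left out. Steps were tested on simulated data. Figures used matplotlib 3.10.9.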

Additional observations from a re-analysis of the deposited data

How the results depend on the processing

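Results were recomputed with 1 choice changed at a time. DKK1 kept its call except without moderation (7.05, adjusted p = 0.0646); its log2 fold change was 6.91 to 7.27 with single arrays left out. The number of probe sets past the adjusted threshold was 17 after median centring, 66 above the median brightness, 98 among annotated probe sets, 53 with a trended and robust prior, 59 with array weights, 1 without moderation, 1 with the replicate number as a block and 2 to 6 with 1 array left out. Members past it numbered 2 above the median brightness, 2 among annotated probe sets and 2 with the mean of all probe sets of a gene (EGR1 and DUSP5 each time), 1 with a trended and robust prior (EGR1), 1 with array weights (DUSP5) and 0 elsewhere, including 0 with any array left out. Members at an unadjusted p under 0.05 numbered 6 to 12 over all alternatives, 6 without DLD-1/DKK1 replicate 2 and 12 without DLD-1/Mock replicate 2. Fits on fewer probe sets adjust over fewer tests and also estimate the prior anew. For EGR1 the limma unadjusted p was 0.000108 over all probe sets and 3.82e-05 among annotated ones. The share of each in these counts was not tested, nor was the cause elsewhere.

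Deviations of same-numbered arrays correlated at -0.137 to 0.105, within the range of -0.2347 to 0.2252 for arrays of different numbers. With so few arrays per group, these correlations cannot decide whether the numbers pair the dishes. With the replicate block 0 members passed (EGR1 adjusted p = 0.351, DUSP5 0.417) and 9 had an unadjusted p under 0.05.

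Subgroup medians moved most under median centring, to -0.0249 for AP-1, -0.2172 for EGR, 0.0333 for DUSP, 0.0638 for SPRY/SPRED/ETV, -0.0276 for IER, KLF and other genes and -0.0092 for all members. Median centring also moved the median of all genes, from -0.0072 to 0.0452. The DUSP median was 0.0155 after quantile normalisation and 0.0195 after cyclic loess, the AP-1 median -0.0443 with array weights, and the SPRY/SPRED/ETV median 0.0491 above the median brightness, where ETV1 had been filtered out. With 1 array left out the medians ran from -0.0913 to -0.0416 for AP-1, from -0.296 to -0.2428 for EGR, from -0.0599 to -0.0147 for DUSP, from -0.0047 to 0.0124 for SPRY/SPRED/ETV, from -0.0957 to -0.0778 for IER, KLF and other genes and from -0.0715 to -0.0371 for all members.

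Signs turned for 12 members, none of which had an unadjusted p under 0.05. Under quantile normalisation, median centring and cyclic loess in that order these were JUN (0.0381, 0.0405 and 0.0428), EGR3 (0.034, 0.0338 and 0.0283), DUSP2 (0.0301, 0.048 and 0.0215) and DUSP4 (0.0146, 0.0187 and 0.0185). Of the scalings only median centring turned FOSL1 (0.0191), ETV5 (0.0261) and IER5 (0.0087), and array weights turned FOSB (0.0109), DUSP1 (-0.0018) and DUSP2 (0.0041). With 1 array left out the ranges that crossed 0 were -0.1511 to 0.0642 for FOSB, -0.0329 to 0.0005 for JUN, -0.0446 to 0.0086 for EGR3, -0.0595 to 0.0577 for DUSP1, -0.0564 to 0.0398 for DUSP2, -0.0604 to 0.0041 for DUSP4, -0.0016 to 0.057 for DUSP6, -0.0153 to 0.0842 for DUSP10, -0.082 to 0.0061 for IER5, -0.0209 to 0.0453 for KLF4. The 9 members at an unadjusted p under 0.05 kept their sign in every alternative run on them.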
